A study of Mus musculus with 6 samples.

Results

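The interleukin-1 family and inflammasome genes described here are 10 genes: the agonists Il1a, Il1b and Il18, the antagonists Il1rn and Il18bp, the receptor chains Il1r1 and Il1rap, and the inflammasome genes Nlrp3, Casp1 and Casp4. They were taken by symbol, through their Ensembl gene IDs, from a table of 34745 genes, and each matched exactly 1 row. RNA was sequenced from cells labelled as alveolar macrophages, the macrophages of the air spaces, recovered from mice by bronchoalveolar lavage. There were 3 libraries from Phlpp1-deficient mice (KO) and 3 from wild-type (WT) mice. All mice had received bleomycin, a drug used to injure the lung and model pulmonary fibrosis, at 5 mg per kg, and were sampled at day 7. Saline-treated mice were not analysed here. The labels give neither the Phlpp1 allele, nor the cells in which it was lost, nor the age or strain of the mice. Nor do they state whether the libraries are from separate animals, so the p-values reflect only how far these libraries scatter, and that scatter may be technical.

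Interleukin-1 alpha and beta are alarm cytokines that bind the same receptor, IL1R1, which signals together with the accessory chain IL1RAP. The product of Il1rn, the interleukin-1 receptor antagonist, occupies IL1R1 without signalling, and the product of Il18bp binds interleukin-18 in solution. Pro-interleukin-1 beta and pro-interleukin-18 are cut to their active forms by caspase-1, which is activated on inflammasomes such as the one built on NLRP3. Mouse caspase-4, also called caspase-11, is activated by intracellular bacterial lipopolysaccharide. In the lung, alveolar macrophages, recruited monocytes and neutrophils are all known sources of interleukin-1 beta, and blocking its receptor is known to lessen bleomycin injury in mice.

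The libraries held 13340861 to 15843764 counts each. Phlpp1 itself had 30.3, 25.3 and 28.5 CPM (counts scaled to a common library size, with totals corrected for composition by the TMM method) in WT libraries 1, 2 and 3, and 23.2, 21.6 and 17.7 CPM in KO libraries 1, 2 and 3. These did not overlap, but the gene did not pass the test (log2 difference -0.43, SE 0.16, adjusted p = 0.62 in edgeR). As the labels do not say which exons were lost, counts over the whole gene are a limited check of the genotype. The 16 markers listed for resident alveolar macrophages were all detected, with a summed level of 5560 to 7543 CPM in WT and 5652 to 10970 CPM in KO libraries. The lavage also held signal of other cells. The 20 neutrophil markers summed to 1223, 11320 and 2427 CPM in WT libraries 1, 2 and 3 and to 5729, 8345 and 1452 CPM in KO libraries 1, 2 and 3. None of the 20 was at 0 in all libraries, although Mpo, Elane and Ctsg, granule genes of immature neutrophils, were counted only in KO library 2. KO library 3 stood apart from the other 2 KO libraries in neutrophil markers and in the immediate early genes given with Il1b. In these bulk samples fewer cells of a type and less RNA per cell cannot be told apart.

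Because the agonists Il1a and Il1b showed the largest differences among the members, the 250 bases before the transcript start of each are printed here. Those of Il1r1, whose KO libraries all lay above WT, and of the antagonist Il1rn are shown with them. Il1r1 also has a later RefSeq start, at 40266586, whose window is not printed and held no match to the letters below. The sequences are from RefSeq, build GRCm38.p6, and are written 5′ to 3′ on the strand of the gene. Capitals mark matches, on either strand, to the TATA box letters TATAAA, the AP-1 letters TGANTCA or the NF-kappaB letters GGG, NN and TTTCC in a row.
Il1b (minus strand, chr2:129371140-129371389): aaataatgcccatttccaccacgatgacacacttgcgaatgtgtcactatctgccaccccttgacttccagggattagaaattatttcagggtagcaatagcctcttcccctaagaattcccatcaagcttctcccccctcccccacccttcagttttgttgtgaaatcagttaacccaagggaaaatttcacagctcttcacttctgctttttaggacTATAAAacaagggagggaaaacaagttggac
Il1a (minus strand, chr2:129309973-129310222): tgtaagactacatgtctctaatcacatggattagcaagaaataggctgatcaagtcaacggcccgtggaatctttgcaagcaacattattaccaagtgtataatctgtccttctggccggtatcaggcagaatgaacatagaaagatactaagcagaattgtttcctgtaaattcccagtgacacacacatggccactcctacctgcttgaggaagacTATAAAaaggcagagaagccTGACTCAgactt
Il1r1 (plus strand, chr1:40224830-40225079): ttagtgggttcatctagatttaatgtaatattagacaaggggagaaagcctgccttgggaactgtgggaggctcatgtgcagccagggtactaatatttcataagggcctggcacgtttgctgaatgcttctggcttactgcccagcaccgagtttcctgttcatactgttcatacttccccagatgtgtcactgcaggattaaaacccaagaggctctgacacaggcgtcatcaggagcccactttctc
Il1rn (plus strand, first of 3 RefSeq starts, chr2:24336610-24336859): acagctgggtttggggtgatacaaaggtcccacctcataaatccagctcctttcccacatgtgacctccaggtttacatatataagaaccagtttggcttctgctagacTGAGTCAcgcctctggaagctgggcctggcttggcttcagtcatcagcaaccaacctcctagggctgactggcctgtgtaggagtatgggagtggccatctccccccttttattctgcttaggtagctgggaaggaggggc

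Il1b and Il1a both held TATAAA at nearly the same place, at -31 to -26 and -32 to -27 from the start. Of 32851 RefSeq promoter windows of the same length, 12.37% held TATAAA. The AP-1 letters were found in Il1a at -12 to -6 and in Il1rn at -141 to -135, against 6.75% of all windows. The NF-kappaB letters, which 1.41% of windows held, were absent from the 4 printed windows and present before a later start of Il1rn (GGGTTTTTCC) and before Casp4 (GGGGATTTCC). All 10 members matched a RefSeq promoter by symbol. These letter matches describe the windows and do not show that a factor binds.

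All 10 members were well counted, with 185 to 43218 reads per gene and library, and all 10 passed the filter on low counts. None passed the adjusted threshold of 0.05 between the genotypes when edgeR's quasi-likelihood model was fitted to 14037 genes. In that fit 14 genes passed (0.0997%), of which 7 were higher in KO (0.0499%) and 7 lower (0.0499%). The smallest adjusted p of a member was 0.40. At an unadjusted p under 0.05 there were 3 members, Il1r1, Il1a and Il1b, all higher in KO, against 6.96% of all tested genes in either direction and 3.40% that were higher. The KO and WT libraries did not overlap for 3 members, against 11.1% of all tested genes. Il1a and Il1r1 lay above WT, as 4.57% of all genes did, and Casp1 below it, as 6.53% did. These counts are by CPM. By the deposited FPKM, which is scaled by library totals alone, Il1a overlapped and 2 members, Il1r1 and Casp1, did not. The median log2 difference of the 10 was 0.26, against -0.02 for all genes, with 7 above and 3 below 0.

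**Figure D1:**
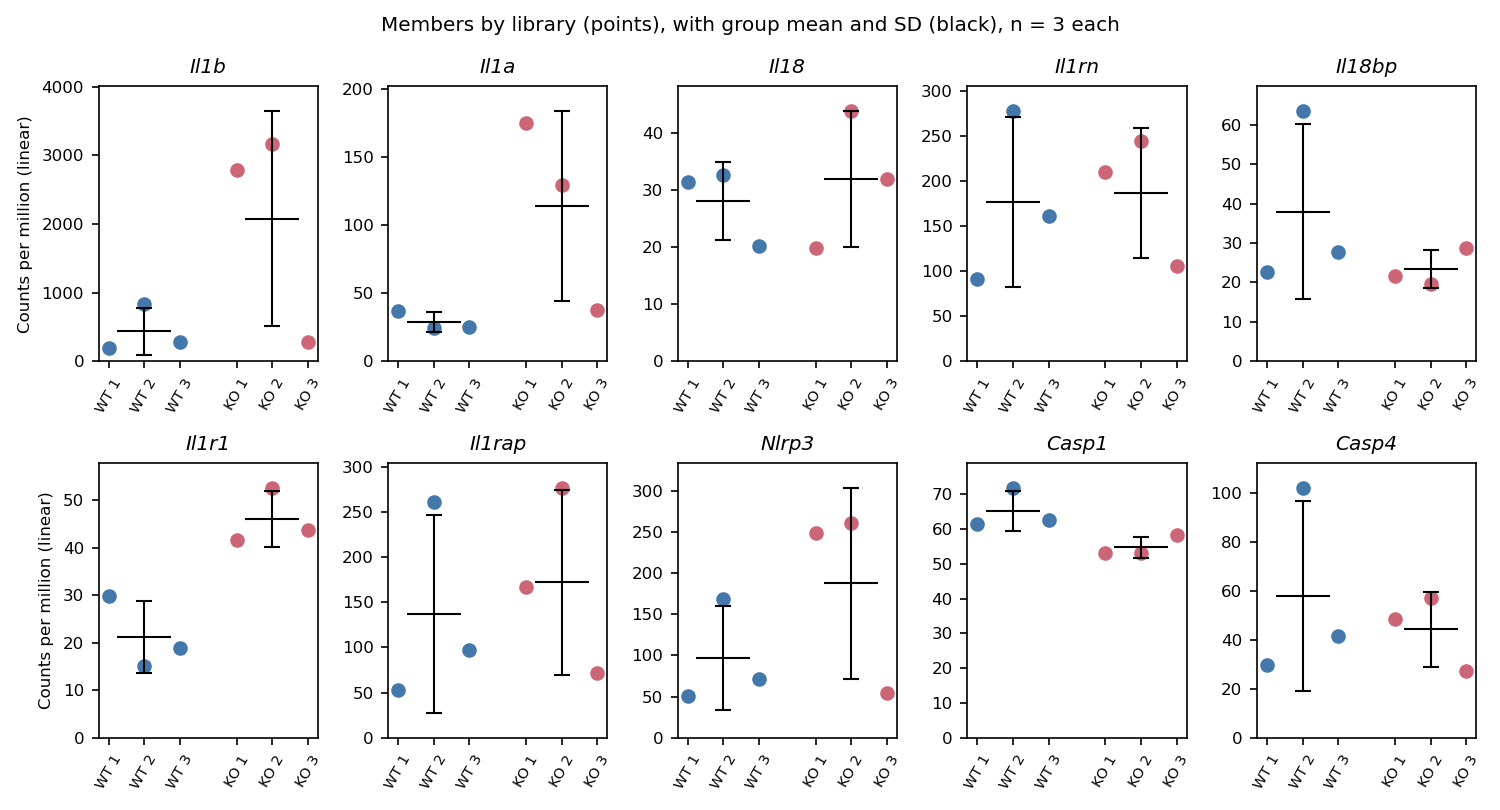
CPM of the 10 members (linear axes from 0) in each WT (blue) and KO (red) library, with group mean and SD in black (n = 3 each). Il1b, Il1a and Nlrp3 are highest in KO libraries 1 and 2, while KO library 3 lies near the WT libraries. Il1r1 is higher in all 3 KO libraries.

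Il1b (ENSMUSG00000027398, GRCm38 chromosome 2, 129364570 to 129371139, minus strand), which encodes pro-interleukin-1 beta, was the most abundant member per length in both genotypes. It had 189, 833 and 287 CPM in WT libraries 1, 2 and 3. The KO values were 2783, 3173 and 279.5 CPM in the same order. KO libraries 1 and 2 thus lay above all WT libraries, whereas KO library 3 lay below 2 of them, and the groups overlapped. The WT mean was 436 ± 347 CPM and the KO mean 2078 ± 1570 CPM (SD, n = 3 each). Il1b differed by 2.25 on the log2 scale (SE 0.93), with an unadjusted p of 0.0453 and an adjusted p of 0.70 (edgeR), so Il1b did not pass. Without KO library 3 the difference was 2.80 (edgeR adjusted p = 0.23). Over all fits that left out 1 library it lay between 1.81 (without KO library 2, edgeR unadjusted p = 0.12) and 3.14 (without WT library 2). By FPKM (read counts scaled by library total and gene length, as deposited) it ranked 21st and 23rd of all genes in KO libraries 1 and 2, 91st in WT library 2, and between 271st and 424th in the other 3. Reads of its antisense gene Il1bos, which overlaps its exons, numbered 27 to 242 per library and cannot be told apart from those of Il1b in these counts.

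Il1a (ENSMUSG00000027399, chromosome 2, 129299610 to 129309972, minus strand), which encodes the other agonist of the receptor, lies near Il1b on the same strand. It had 37.1, 24.5 and 25.1 CPM in WT libraries 1, 2 and 3, and 175, 129 and 37.9 CPM in KO libraries 1, 2 and 3. By CPM every KO library was above every WT library, KO library 3 being above WT library 1 by less than 1 CPM. By FPKM WT library 1 had 19.7 and KO library 3 had 19.5, so the groups overlapped on that scale. The means were 28.9 ± 7.07 and 114 ± 69.7 CPM in WT and KO (SD, n = 3 each), which differed by 1.98 on the log2 scale (SE 0.52, edgeR adjusted p = 0.44). Il1a passed without KO library 3 (log2 difference 2.41, edgeR adjusted p = 0.0352), a fit in which 0.222% of all genes passed. It also passed in DESeq2 (adjusted p = 0.00779), where 1.42% of all genes did. An antisense gene that overlaps its exons, Gm14023, had 5 to 13 reads per library.

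Il18 (ENSMUSG00000039217, chromosome 9, 50554827 to 50581840, plus strand), the cytokine that drives interferon gamma in T and NK cells, showed no such pattern. Its WT values were 31.5, 32.6 and 20.1 CPM and its KO values 19.9, 43.8 and 31.9 CPM, for libraries 1, 2 and 3. The groups overlapped, and KO library 1, among the highest for Il1b, was the lowest for Il18. Il18 differed by 0.18 on the log2 scale (SE 0.32, edgeR adjusted p = 0.9998). It was -0.12 without KO library 2.

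Of the antagonists, Il1rn (ENSMUSG00000026981, chromosome 2, 24336853 to 24351494, plus strand) had 91.4, 278 and 162 CPM in WT libraries 1, 2 and 3. Its KO values were 210.4, 244 and 106 CPM in the same order. Within each genotype it differed 3.04-fold and 2.30-fold between libraries, but the genotype means of 177 ± 94.1 and 187 ± 71.9 CPM (SD, n = 3 each) lay close together. Their log2 difference was 0.08 (SE 0.45, edgeR adjusted p = 0.9998). It was -0.24 without WT library 1, -0.02 without KO library 1 and -0.16 without KO library 2. Its libraries fell in the same order, from high to low, as the summed CPM of the neutrophil markers: WT 2, KO 2, KO 1, WT 3, KO 3 and WT 1. By the mean log2 CPM of the 16 neutrophil markers that passed the filter on low counts, KO 2 came before WT 2, at 7.66 against 7.52. Neutrophils are known to express Il1rn, and their part in these values was examined only by adding the mean of those markers to the model, after which the difference was -0.17 (SE 0.13, edgeR adjusted p = 0.77).

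Il18bp (ENSMUSG00000070427, chromosome 7, 102014885 to 102018690, minus strand) had 22.7, 63.5 and 27.6 CPM in WT libraries 1, 2 and 3. In KO libraries 1, 2 and 3 it had 21.7, 19.6 and 28.8 CPM. WT library 2 stood well above the other 5, which lay between 19.6 and 28.8 CPM. The log2 difference was -0.70 (SE 0.39, edgeR adjusted p = 0.87), and it was -0.09 without WT library 2. Exons of Il18bp overlap Numa1 on the opposite strand, which had 2761 to 4485 reads per library, and since no source used here gives the strand setting, reads of the overlap cannot be told apart.

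**Figure D2:**
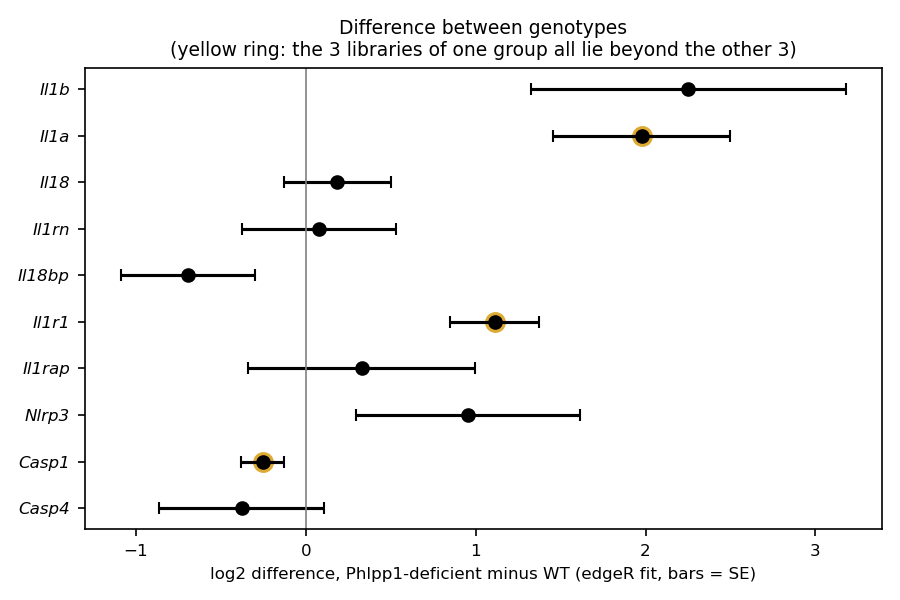
log2 difference (KO minus WT) of the 10 members in the edgeR fit, with SE bars. Yellow rings mark Il1a, Il1r1 and Casp1, whose groups did not overlap by CPM. Il1b has the largest difference, 2.25, and also the largest SE, 0.93.

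To set agonist against antagonist within a library, the ratio of their FPKM values was taken, which does not depend on library scaling. Il1b exceeded Il1rn in every library. WT libraries 1, 2 and 3 had Il1b to Il1rn ratios of 7.11, 10.3 and 6.11, whereas those of KO libraries 1, 2 and 3 were 45.6, 44.8 and 9.08. KO libraries 1 and 2 agreed closely and lay above the other 4, while KO library 3 lay within the WT range. The mean log2 ratio was 2.94 ± 0.39 in WT and 4.73 ± 1.34 in KO (SD, n = 3 each), a difference of 1.79. Leaving out 1 library gave 1.40 (without KO library 1) to 2.56 (without KO library 3). An exact two-sided permutation test gave p = 0.2, or 0.27 adjusted over the 4 ratios tested, where 3 against 3 libraries cannot give less than 0.1. The ratio in KO was higher than all WT values in 2 of 3 libraries.

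WT libraries 1, 2 and 3 had Il1a to Il1rn ratios of 1.66, 0.36 and 0.64, against 3.41, 2.17 and 1.46 in KO libraries 1, 2 and 3. Per length as deposited, Il1a thus exceeded its antagonist in all 3 KO libraries and in 1 WT library. By counts Il1rn exceeded Il1a in all 6 libraries, for example with 2936 against 2438 reads in KO library 1. The deposited FPKM imply a length of 8102 bases for Il1rn, where GENCODE M21 gives 5535 exon bases, and with the M21 lengths the ratios were 1.14, 0.25 and 0.44 in WT and 2.33, 1.48 and 1.001 in KO libraries 1, 2 and 3. The log2 difference between genotypes was 1.61 (exact permutation p = 0.2, adjusted 0.27). With both agonists summed, the ratio to Il1rn lay between 6.75 and 10.7 in WT and between 10.5 and 49.0 in KO, and the log2 difference was 1.75 (exact permutation p = 0.2, adjusted 0.27). The summed ratio is carried by Il1b, since Il1a had much the lower FPKM in every library.

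The Il18 to Il18bp ratio was 2.72, 1.01 and 1.43 in WT libraries 1, 2 and 3. In KO libraries 1, 2 and 3 it was 1.80, 4.38 and 2.17. The groups overlapped, with a log2 difference of 0.71 (exact permutation p = 0.3, adjusted 0.3). Leaving out 1 library gave 0.33 (without KO library 2) to 1.103 (without WT library 1). The mean difference was about as large as the spread within a genotype, whose SDs were 0.73 and 0.68.

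**Figure D3:**
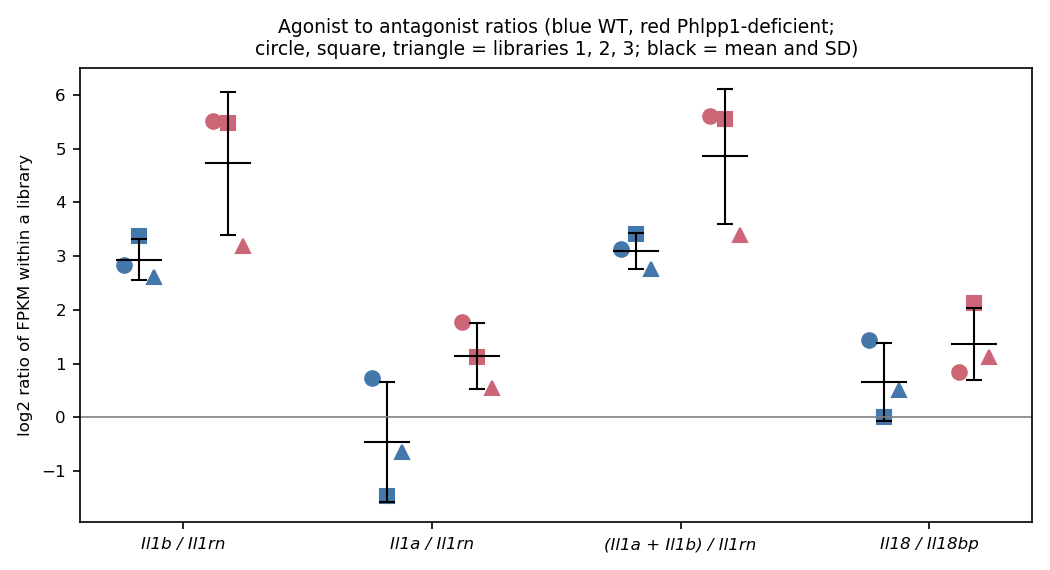
log2 ratio of agonist to antagonist FPKM within each WT (blue) and KO (red) library, where symbols mark libraries 1 (circle), 2 (square) and 3 (triangle) and black bars the mean and SD (n = 3 each). KO libraries 1 and 2 stand at 5.51 and 5.49 for Il1b to Il1rn, and KO library 3 at 3.18, within the WT range of 2.61 to 3.37.

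The receptor chains differed from each other. Il1r1 (ENSMUSG00000026072, chromosome 1, 40225080 to 40317257, plus strand), the signalling receptor, was the lowest member per length in both genotypes, at 2.18 ± 0.90 FPKM in WT and 4.69 ± 0.45 FPKM in KO (SD, n = 3 each). It had 29.7, 15.1 and 18.9 CPM in WT libraries 1, 2 and 3, and 41.6, 52.6 and 43.7 CPM in KO libraries 1, 2 and 3. All KO libraries lay above all WT libraries, KO library 3 included. The log2 difference was 1.11 (SE 0.26), with the smallest unadjusted p of the members, 0.00352, and an adjusted p of 0.40 (edgeR). The difference lay between 0.87 and 1.43 in 16 alternative fits and passed in 1 of them, DESeq2 (adjusted p = 0.013). Epithelial cells are also known to express Il1r1, and the 9 epithelial markers of a list, by summed CPM, stood in the same library order as Il1r1. They summed to 254, 236 and 240 CPM in WT libraries 1, 2 and 3 and to 337, 971 and 384 CPM in KO libraries 1, 2 and 3. Scgb1a1 alone, named after its values were seen, had 601 of the 971 CPM in KO library 2. By the mean log2 CPM of the epithelial markers WT 2 came before WT 3, at 4.03 against 4.02, unlike Il1r1. All 9 had a log2 difference above 0, with a median of 1.06, and 3 lay above WT in all KO libraries, against 4.57% of all genes. These 3 were all secretoglobins. The groups overlapped for the rest, with log2 differences from 0.05 (Krt8) to 1.09 (Sftpa1), both named after their values were seen. Other lists rose too: all 7 B cell markers were above 0 (median 1.47), as were 15 of 16 resident alveolar macrophage markers (median 0.48). The 15 markers of monocytes and monocyte-derived macrophages went the other way, with 14 below 0, a median of -0.79, 6 below WT in all KO libraries, against 6.53% of all genes, and summed levels of 3910 to 6109 CPM in WT and 2689 to 4189 CPM in KO. The 7 NK cell markers were also all below 0 (median -0.71). The part of these cell types in the Il1r1 values was not tested.

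Il1rap (ENSMUSG00000022514, chromosome 16, 26581704 to 26730117, plus strand), the accessory chain shared by several receptors of the family, had 52.6, 261 and 97.4 CPM in WT libraries 1, 2 and 3. The KO libraries had 167, 277 and 71.8 CPM in that order. Il1rap was high in WT library 2 and KO library 2 and low in WT library 1 and KO library 3, as the neutrophil markers were. The log2 difference was 0.33 (SE 0.67, edgeR adjusted p = 0.9998). It was -0.06 without WT library 1, -0.20 without KO library 2, and -0.02 (SE 0.15) when neutrophil markers were added to the model. The decoy receptor Il1r2, which binds interleukin-1 without signalling and is known to be abundant on neutrophils, was named after its values were seen. It had 52.8, 817 and 168 CPM in WT libraries 1, 2 and 3 and 509, 705 and 119 CPM in KO libraries 1, 2 and 3, in the same library order as Il1rn.

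Nlrp3 (ENSMUSG00000032691, chromosome 11, 59541568 to 59566956, plus strand), the sensor that assembles the inflammasome and is itself induced by inflammatory signals, had 50.7, 169 and 71.5 CPM in WT libraries 1, 2 and 3. In KO libraries 1, 2 and 3 it had 249, 261 and 54.1 CPM. Its libraries stood in the same order as those of Il1b, with KO 2 and KO 1 highest, then WT 2, and KO 3 and WT 1 lowest. The log2 difference was 0.96 (SE 0.66, edgeR adjusted p = 0.93). When 1 library was left out, the difference lay between 0.64 (without KO library 2) and 1.63 (without WT library 2). It was 1.42 without KO library 3, and 0.45 (SE 0.30) when neutrophil markers were added to the model.

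Casp1 (ENSMUSG00000025888, chromosome 9, 5298517 to 5307265, plus strand), the protease that cuts pro-interleukin-1 beta, was the steadiest member. It had 61.4, 72.0 and 62.5 CPM in WT libraries 1, 2 and 3 and 53.1, 53.1 and 58.2 CPM in KO libraries 1, 2 and 3. All KO libraries lay below all WT libraries, but the difference was small, with means of 65.3 ± 5.83 and 54.8 ± 2.95 CPM (SD, n = 3 each). On the log2 scale it was -0.25 (SE 0.13, edgeR adjusted p = 0.82). KO libraries 1 and 2, with the most Il1b, had the least Casp1, but WT library 2, next in Il1b, had the most Casp1. Its neighbour Casp4 (ENSMUSG00000033538, chromosome 9, 5308828 to 5336783, plus strand) had 29.7, 102 and 41.7 CPM in WT libraries 1, 2 and 3. In KO libraries 1, 2 and 3 it had 48.6, 57.3 and 27.5 CPM. WT library 2 was the highest, and without it the log2 difference of -0.38 (SE 0.49, edgeR adjusted p = 0.9998) became 0.33. Adding neutrophil markers to the model gave -0.57 (unadjusted p = 0.00941, edgeR adjusted p = 0.32). Neither caspase shared at least 150 bases at 95% identity with another gene, nor did any other member.

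Per length, the order of levels in WT began with Il1b at 178 ± 129 FPKM (SD, n = 3). It was followed by Casp1 at 43.2, Il18 at 39.0 and Il18bp at 26.2 FPKM, then by Il1rn, Nlrp3, Il1a, Casp4 and Il1rap between 21.2 and 8.72 FPKM, and ended with Il1r1. In KO it began with Il1b at 881 ± 659.5 FPKM (SD, n = 3), followed by Il1a at 57.9, Il18 at 44.5, Casp1 at 36.8 and Nlrp3 at 36.5 FPKM, and again ended with Il1r1. By the deposited FPKM the ranges of Il1b and Il1r1 in both genotypes were apart from those of their neighbours, while every other pair of neighbours in the order overlapped. Il1a stood 7th in WT and 2nd in KO. The middle of this order depends on gene length, since the lengths implied by the deposited FPKM differ from the M21 exon lengths for Il18bp (1400 against 3026 bases), Il18 (714 against 1031 bases) and Il1rn, among others. With M21 lengths Il1b stayed first, Il1r1 last and Il1a 7th in WT and 2nd in KO. Il1rn then had 31.1 FPKM in WT, above Il18 at 27.0 FPKM, and Il18bp moved to place 8 in WT and 9 in KO.

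Over the 6 libraries the members fell into unlike patterns. Il1b, Nlrp3 and Il1a were highest in KO libraries 1 and 2, Il1rn, Il1rap and Casp4 were high in WT library 2 and in KO libraries 1 and 2, and Il1r1 was higher in all 3 KO libraries. The libraries with high Il1b were also those with high levels of the 12 immediate early genes of a list, which are induced within minutes by stimulation or handling of cells. These summed to 2209, 3024 and 1588 CPM in WT libraries 1, 2 and 3 and to 11360, 13420 and 2427 CPM in KO libraries 1, 2 and 3, and their part in the Il1b values was not tested. The 16 neutrophil markers that passed the filter had a mean log2 CPM of 7.52 in WT library 2, and of 6.71 and 7.66 in KO libraries 1 and 2. Il1b in these libraries was at 833, 2783 and 3173 CPM. Once neutrophil markers were in the model, the log2 difference of Il1b was 1.46 (unadjusted p = 0.0375, edgeR adjusted p = 0.45). Without those markers in the model the Il1b difference was 3.14 when WT library 2 was left out and 1.81 when KO library 2 was. The difference of Il1a was 1.80 and that of Il1r1 1.26 with the covariate (edgeR adjusted p = 0.48 and 0.12). The markers averaged in the covariate include G0s2, with a log2 difference of 2.73 against a list median of 0.25. The covariate is therefore not free of the difference it adjusts for.

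**Figure D4:**
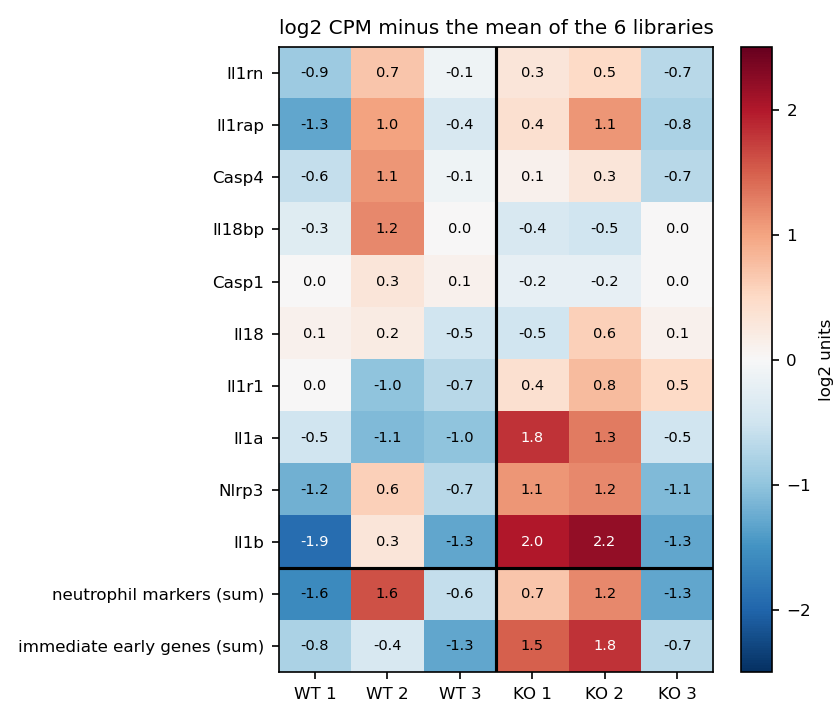
log2 CPM of the 10 members, and of the summed neutrophil marker and immediate early lists, each minus its mean over the 6 libraries (red above, blue below, in log2 units). The lower members, Il1a, Nlrp3 and Il1b, are highest in KO libraries 1 and 2, while Il1rn is highest in WT library 2 and lowest in WT library 1.

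Over 9453 other genes that averaged 10 CPM or more, the 5 most like Il1b were found by the root-mean-square distance of their centred log2 CPM over the 6 libraries. They were Nfkbia, Ccrl2, G0s2, Nfkbiz and Nr4a1, at distances of 0.26 to 0.38 log2 units. Nfkbia, which encodes an inhibitor of NF-kappaB that is itself an NF-kappaB target, had 165, 443 and 243 CPM in WT libraries 1, 2 and 3 and 2198, 1948 and 198 CPM in KO libraries 1, 2 and 3. G0s2 is also one of the neutrophil markers and Nr4a1 one of the immediate early genes. Nfkbia and Nfkbiz are also in the list of genes known to be induced by interleukin-1 that is given below. Of the members, Nlrp3 was nearest to Il1b, in place 23, and Il1a was in place 65. By the same distance, however, Nlrp3 was nearer to Il1rn, at 0.54 log2 units, than to Il1b, at 0.68 log2 units. The 5 genes nearest to Il1rn were Ncf4, Tnfsf14, Klf7, Snx18 and Rlf, at 0.10 to 0.13 log2 units. Ncf4, a subunit of the phagocyte NADPH oxidase, had 119, 316 and 174 CPM in WT libraries 1, 2 and 3 and 231, 269 and 129 CPM in KO libraries 1, 2 and 3. Il1b was in place 9318 from Il1rn, whereas Il1rn was in place 222 from Il1b, at the same distance of 1.20 log2 units. The distance counts the size of changes as well as their direction, so neither place shows that the patterns were opposed.

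Other genes of the pathway were taken from 4 lists, and none of their 59 tested members passed the adjusted threshold. Genes known to be induced by interleukin-1 had a median log2 difference of 2.35 over 15 tested of 17, with 13 above 0, against a median of -0.02 over all genes. At an unadjusted p under 0.05 there were 8, all higher, where 3.40% of all genes were. The list summed to 8634 and 7158 CPM in KO libraries 1 and 2, whereas KO library 3, at 1186 CPM, lay within the WT range of 1073 to 1671 CPM. The 12 immediate early genes went the same way, with 12 above 0 and a median of 2.17, and their part in this was not tested. Cxcl1, a neutrophil-attracting chemokine, had 6.14, 2.77 and 2.10 CPM in WT libraries 1, 2 and 3. KO libraries 1, 2 and 3 had 213, 168 and 14.2 CPM (log2 difference 5.15, SE 1.02, edgeR adjusted p = 0.28). Its relative Cxcl2 had 60.3, 90.9 and 57.5 CPM in WT libraries 1, 2 and 3 and 2280, 2487 and 167 CPM in KO libraries 1, 2 and 3 (log2 difference 4.56, SE 0.95, edgeR adjusted p = 0.30). For both, KO library 3 was above all WT libraries but far below KO libraries 1 and 2. Not all inducible genes went this way: Icam1, an adhesion molecule, and Sod2, the mitochondrial superoxide dismutase, both named after their values were seen, had log2 differences of 0.02 and 0.07. The 2 below 0, Ccl2 and Bcl3, were also named after their values were seen. Their log2 differences were -0.54 (SE 0.445) and -0.16 (SE 0.216). Many of these genes are also induced by other stimuli, and the list is not specific to interleukin-1.

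The genes that carry the signal inside the cell were near 0. The 16 IL-1 receptor signalling genes had a median of -0.04 with 7 above and 9 below 0 and none at an unadjusted p under 0.05. The ubiquitin ligase Peli1 had 180 ± 65.1 and 135 ± 15.1 CPM and the kinase Map3k7 79.7 ± 7.38 and 56.1 ± 24.8 CPM in WT and KO (SD, n = 3 each). Their adjusted p-values in edgeR were 0.91 and 0.92. The lower KO mean of Map3k7 came mostly from KO library 3. KO libraries 1, 2 and 3 had 76.3, 63.6 and 28.5 CPM, against 71.5 to 85.8 CPM in WT. Of 22 other inflammasome and pyroptosis genes 20 were tested, with a median of -0.17 and 14 below 0. The sensor Nlrp1a had 10.2 ± 0.57 CPM in WT and 7.05 ± 1.04 CPM in KO. Serpinb1a, an inhibitor of neutrophil serine proteases, had 43.7 ± 11.4 and 64.5 ± 7.33 CPM (SD, n = 3 each). Both had groups that did not overlap, in opposite directions, and edgeR adjusted p-values of 0.60 and 0.62. Of the 20 tested, 1 lay above WT in all KO libraries and 1 below, against 4.57% and 6.53% of all genes. Pycard, the adaptor that joins NLRP3 to caspase-1, and Gsdmd, the pore-forming protein cut by caspases, were named after their values were seen and had log2 differences of -0.28 (SE 0.17) and -0.27 (SE 0.27).

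Of 12 other ligands and receptors of the family 8 were tested, with a median of 0.10 and 4 on either side of 0. Il18r1, the binding chain of the interleukin-18 receptor, had 147, 129 and 131 CPM in WT libraries 1, 2 and 3 and 178, 176 and 166 CPM in KO libraries 1, 2 and 3. All KO libraries lay above all WT libraries (log2 difference 0.36, SE 0.13, edgeR adjusted p = 0.62). Il1rl1, the receptor of interleukin-33, had 20.2 ± 3.74 and 28.4 ± 10.7 CPM in WT and KO (SD, n = 3 each), and did not pass (edgeR adjusted p = 0.88). Of the interleukin-36 ligands, Il1f6 and Il1f8 (Il36a and Il36b) had no read in any library. Il1f9 (Il36g), named after its values were seen, had 17.0, 239 and 49.8 CPM in WT libraries 1, 2 and 3 and 94.2, 110.2 and 15.0 CPM in KO libraries 1, 2 and 3. It was highest in WT library 2, as the summed CPM of the neutrophil markers was.

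**Figure D5:**
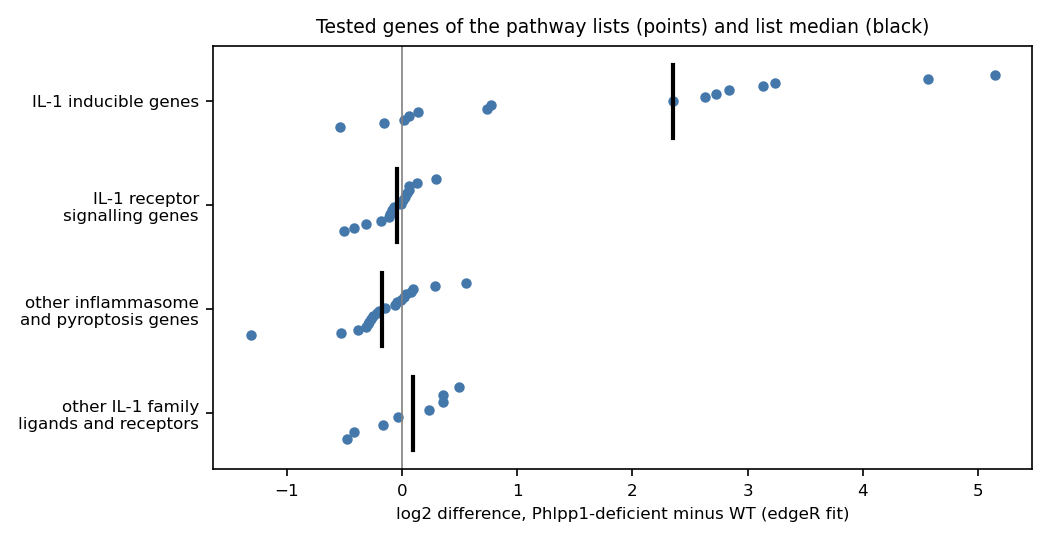
log2 difference (KO minus WT) of each tested gene in the 4 other pathway lists, with the list median as a black line. The IL-1 inducible genes have a median of 2.35, while the other 3 lists have medians between -0.17 and 0.10.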

How the data were processed

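Libraries were made from bead-captured mRNA, per the labels' protocols. HISAT2, edgeR, StringTie 1.3.0 and mm10 are named in the submitters' processing notes, with no role given. No source used here gives the annotation or strand setting. The authors deposited whole, unscaled read counts per gene. The FPKM values deposited by the authors equal count over library total and a length per gene, checked to a relative deviation of 6.88e-06 in the 9265 genes that exceeded 100 counts in each library. The 12 columns carry the libraries' names.

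GENCODE M21 (GRCm38, the assembly of mm10) named 34267 of 34745 gene IDs. Library pairs within a group all differed beyond sampling noise (chi-square per gene of at least 34.4), and all 6 were kept. Counts were tested with edgeR 4.0.16 under R 4.3.3 (TMM after filterByExpr, then glmQLFit with robust=TRUE, glmQLFTest, Benjamini-Hochberg over 14037 genes). SE is the log2 difference over the square root of F. Ratios were compared by exact permutation in scipy 1.17.1. Copies were sought with blastn 2.17.0. Alternatives were a replicate block, leaving out each library, DESeq2 1.42.0, limma 3.58.1 (voom, or log2(FPKM + 1) and log2(FPKM + 0.1)), RLE factors, library totals, other filters, a neutrophil covariate and, added after seeing the data, M21 exon lengths.

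The members and lists were chosen with earlier results of these data known. The text names the members, Phlpp1, up to 4 passing genes of each pathway list or the 2 with the smallest p, and the 5 genes nearest to Il1b and to Il1rn. Where another gene is named for its values, the text says so. Il36a, Il36b, Il36g and Il36rn were found under older names.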

Additional observations from a re-analysis of the deposited data

How the results depend on the processing

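Of the 10 members, none passed in the main test. 1 passed without KO library 3 (Il1a) and 2 passed in DESeq2 (Il1a and Il1r1), and 0 passed in each of the other 14 alternative fits, so leaving out a library gave 0 to 1. Over all genes, 14 passed in the main test, 199 in DESeq2, 46 with the neutrophil covariate, 36 without a filter on low counts, 27 and 22 in limma on log2(FPKM + 0.1) and log2(FPKM + 1), 23 in limma-voom, and 1 (without WT library 3) to 32 (without KO library 3) when a library was left out. The differences of Il1a, Il1b, Il1r1, Nlrp3, Il18bp and Casp1 kept their sign in all 16 fits. Il1rn turned to -0.17 and Il1rap to -0.021 with the neutrophil covariate. Leaving out a library moved Il1rn between -0.24 and 0.57, Il1rap between -0.20 and 1.21, Il18 between -0.12 and 0.43 and Casp4 between -0.70 and 0.33. It also moved Il1b between 1.81 and 3.14, Il1a between 1.53 and 2.41 and Nlrp3 between 0.64 and 1.63. The cause was not tested. The 4 ratios kept their sign in all 11 alternatives each. Ratios of counts, M21 lengths and the replicate block could not change the difference for a ratio of single genes, so their agreement carries no weight. With the replicate number as a block, 1 gene and 0 members passed. Same-numbered libraries correlated at -0.13, 0.33 and 0.30 in their deviations from the group means, and not every library correlated best with its own number, so the numbers were not taken to pair the samples. Members had at least 185 reads in every library.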
